A study of Mus musculus with 28 samples.

Results

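The synuclein genes Sncb and Sncg and the neuronal pentraxin genes Nptx1, Nptx2 and Nptxr, 5 of the 19421 genes in the expression table, were followed in mouse embryonic stem cell lines in which combinations of the transcription factors Atoh1, Gfi1 and Pou4f3 could be switched on. Sncg and Nptx1 were chosen by their Dox effects in these same libraries, which were high where Pou4f3 was induced, so their Dox effects are given as a description and were not tested. Sncb, Nptx2 and Nptxr entered as paralogs of these genes, with earlier results of these data known, and their Dox effects were tested. All 5 genes passed the filter on low values, which took 10 or more normalized counts in 2 or more libraries. Sncb passed it only through Dox libraries, since its highest No Dox value was 7.02. Its test for a higher level with Dox was therefore not free of that selection.

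All lines derived from the parental line A2loxCre and carried a Dox-inducible transgene that coded for the named factors followed by the fluorescent protein Venus. They were iAtoh1 (Atoh1), iGfi1 (Gfi1), iPou4f3 (Pou4f3), iG+A (Gfi1 with Atoh1), iG+P (Gfi1 with Pou4f3), iP+A (Pou4f3 with Atoh1) and iGPA (all of them). The cells were grown as embryoid bodies (EBs), aggregates that differentiate without LIF into a mixture of cell types, and mRNA was sequenced at day 6. In the Dox group, 2 µg/ml doxycycline (Dox) was added at day 4 for 48 h and the Venus+ cells were then sorted, whereas the No Dox group was whole untreated EBs of the same line. Dox, transgene expression and sorting therefore cannot be told apart in a comparison of Dox with No Dox. Each of the 14 groups had 2 replicates, made from different clones according to the series record, for 28 libraries in all.

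Synucleins are small proteins of the presynaptic terminal that bind to the membrane of synaptic vesicles. γ-synuclein, the product of Sncg, is known from sensory, motor and retinal ganglion neurons, and β-synuclein, the product of Sncb, from most neurons of the brain. Neuronal pentraxins form large secreted complexes that bind AMPA-type glutamate receptors and gather them at synapses. Nptx1 and Nptx2 code for the secreted forms, Nptx2 being known as an early gene of neuronal activity, and Nptxr codes for the form anchored in the membrane.

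The values were DESeq2-normalized counts, whose sums were 36751941 to 40380674 per library with 17628 to 18074 genes above 0. Pou4f3 checked the labels. It was at 4694 and 5381 normalized counts in the Dox libraries of iPou4f3, at 17590 and 19883 in iG+P, at 13037 and 15115 in iGPA and at 12878 and 10868 in iP+A. It was between 2.22 and 72.6 normalized counts in the 14 No Dox libraries. Some Pou4f3 RNA was also present in Dox cells of lines with no Pou4f3 transgene, at 27.7 to 101 normalized counts, and its Dox effect passed the threshold in iAtoh1 (2.21, adjusted p = 0.00218) and iG+A (3.11, adjusted p = 3.72e-05). The iAtoh1 call was lost when only the groups compared were fitted (adjusted p = 0.0512). Atoh1 rose in the 4 lines built to carry it, by 7.25 to 8.50 on the log2 scale, and Gfi1 in its own 4 lines, by 6.51 to 7.42. In lines that did not carry them, Atoh1 rose by 2.04 in iGfi1 (adjusted p = 0.00025) and 2.70 in iG+P (adjusted p = 4.88e-06), and Gfi1 by 1.55 in iPou4f3 (adjusted p = 0.000861) and 1.65 in iP+A (adjusted p = 8.77e-05). The Gfi1 call in iPou4f3 was lost when only the groups compared were fitted (adjusted p = 0.116), with a pseudocount of 5 (1.45) and without its first No Dox replicate (1.22), and that in iP+A without its second Dox replicate (1.49). A line compared below as lacking a factor could therefore hold some of its RNA. Here and below a Dox effect is the difference in mean log2(normalized count + 1) between Dox and No Dox libraries of a line. It came from limma, with Benjamini-Hochberg adjustment over 16837 genes, and passing the threshold took an absolute log2 fold change of 1.5 or more with an adjusted p under 0.05.

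Sncg (Entrez ID 20618) lies on chromosome 14 from 35183460 to 35187975 on the minus strand of NCBIM37, the assembly also called mm9, with 5 exons in its longest transcript of 852 bases. The normalized counts of Sncg in Dox cells were 2799 and 2922 in iPou4f3, 6299.5 and 8684 in iG+P, 7799.5 and 6324 in iP+A, and 9112 and 9003 in iGPA. In the 14 No Dox libraries its lowest, median and highest values were 10.2, 29.8 and 41.8. In the 6 Dox libraries of iAtoh1, iGfi1 and iG+A, these values were 23.7, 41.5 and 74.4. Every Dox library with the Pou4f3 transgene was far above all 20 others, a separation that the choice of Sncg by these same values favored. The highest value without Pou4f3, 74.4, came from the iG+A line, whose Dox libraries were at 44.7 and 74.4 against 30.2 and 30.3 without Dox.

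The Dox effect on Sncg was highest in iG+P at 8.98, followed by iGPA at 8.17, iP+A at 7.42 and iPou4f3 at 6.86 on the log2 scale, each ± 0.37 (SE). As ratios of mean normalized counts these were 529-fold, 292-fold, 176-fold and 118-fold. In iAtoh1, iGfi1 and iG+A the Dox effect was -0.15, 0.59 and 0.91. The levels in Dox cells were ordered iGPA, iG+P, iP+A and iPou4f3 by their means. The iG+P and iP+A libraries overlapped, whereas both iPou4f3 libraries were below the other 6. With Gfi1 beside Pou4f3 the Dox effect was 2.12 higher than with Pou4f3 alone, and with Atoh1 beside Pou4f3 it was 0.55 higher (± 0.52, SE of each difference). Adding Atoh1 to iG+P moved it by -0.81 and adding Gfi1 to iP+A by 0.76. The lines also differed in Pou4f3 itself, whose mean in Dox cells was 5037 normalized counts in iPou4f3, 11870 in iP+A, 14080 in iGPA and 18740 in iG+P, and its part in these differences was not tested.

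**Figure D1:**
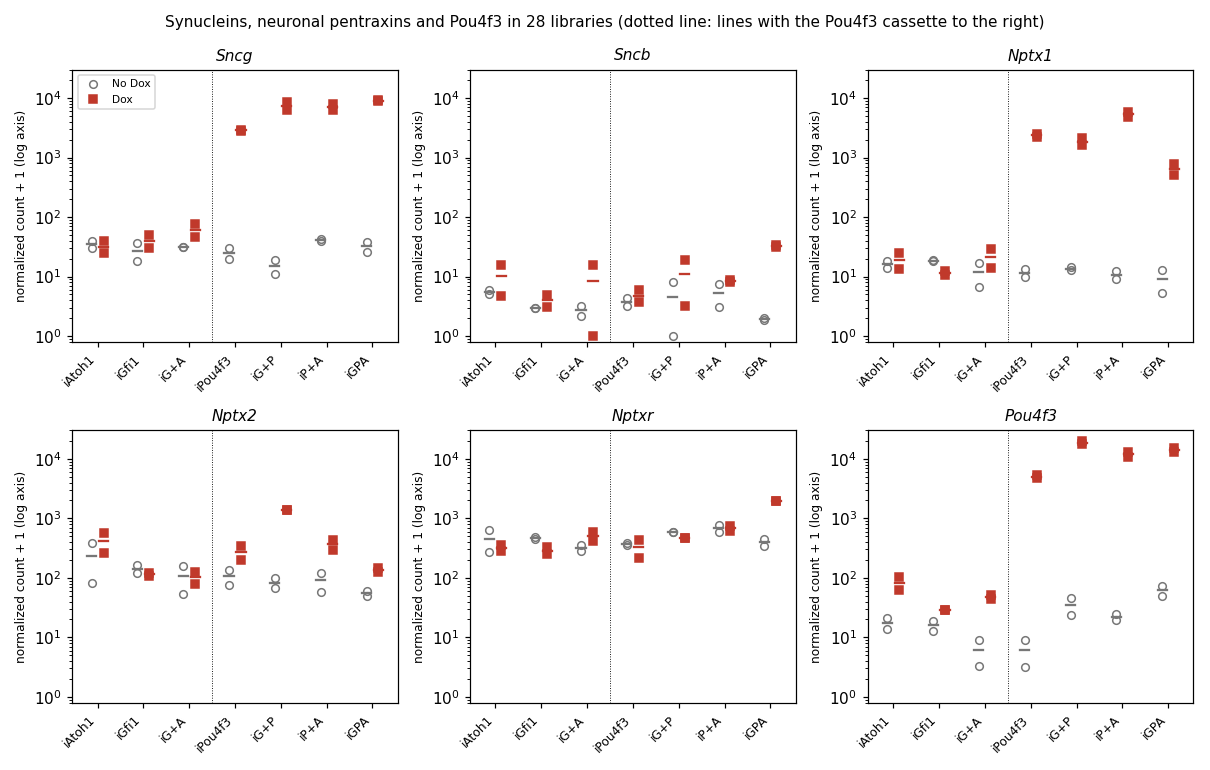
Normalized counts of Sncg, Sncb, Nptx1, Nptx2, Nptxr and Pou4f3 in each library, plotted as normalized count + 1 on a log axis, with 1 panel per gene and 1 column per line. Open circles are No Dox and filled squares Dox libraries, 2 of each per line, horizontal bars are their means, and lines with the Pou4f3 transgene stand right of the dotted line. For Sncg and Nptx1 the 8 Dox libraries with Pou4f3 stand above the other 20, whereas Nptx2 is highest in Dox iG+P cells, at 1367 and 1357, and Nptxr in Dox iGPA cells, at 1923 and 1994.

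Sncb (Entrez ID 104069) lies on chromosome 13 from 54860221 to 54867956 on the minus strand, with 4 annotated transcripts, the longest of 1351 bases in 6 exons. It was close to the limit of detection in nearly all libraries, with a lowest, median and highest of 0, 2.14 and 7.02 normalized counts in the 14 No Dox libraries. In Dox cells of iGPA it was at 32.7 and 30.3 normalized counts, against 0.9 and 1.0 without Dox. These were the highest values among the 28 libraries. In the other 6 lines the Dox libraries were between 0 and 17.7, and replicates of 1 line could differ widely, as in iG+P at 17.7 and 2.2 and in iG+A at 0 and 14.6.

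The Dox effect on Sncb passed the threshold in iGPA, at 4.08 ± 1.07 (SE) on the log2 scale with a 95% interval of 1.84 to 6.31 and an adjusted p of 0.00438. In this line 8.65% of the genes tested were called as higher with Dox. The size of the effect depended on the value added before taking logs, being 2.62 with 5 and 4.49 with 0.5, since the No Dox level was near 0, and no linear fold is given. In the other 6 lines the Dox effect was 0.31 to 1.44 and did not pass the threshold. The mean Dox effect over the 4 lines with Pou4f3 exceeded that over the 3 lines without it by 1.13 ± 0.81, with an adjusted p of 0.45 and an interval of -0.58 to 2.84. The corresponding difference for Sncg was 7.41 ± 0.28 and was not tested. The Dox effect in iGPA was 3.50 larger than in iG+A, 3.24 larger than in iP+A and 2.63 larger than in iG+P (± 1.51, SE), with adjusted p values of 0.22, 0.147 and 0.267, so that Sncb in iGPA was not shown to differ from the lines with a pair of factors. Leaving out 1 library moved these differences widely. That from iG+A was 1.51 without its first Dox replicate, at 0 normalized counts, and 5.48 without its second, at 14.6, with an adjusted p of 0.032 in the latter fit. That from iP+A was 2.60 to 3.89 and that from iG+P 1.13 to 4.14, and these passed in none of the fits.

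Since 5′ sequence bears on genes whose levels differ with a transcription factor, the start regions of the synucleins were read from the RefSeq promoter table, which was made on GRCm38.p6 and which held both of them. Each was placed on NCBIM37 by an exact match, and the bases before the annotated first exon are given 5′ to 3′ on the gene's strand. Capitals mark matches, on either strand, to the motifs searched. For Sncb these are 250 bases at chr13:54867957-54868206, for Sncg 130 bases at chr14:35187976-35188105, since the remainder of the RefSeq window lies inside its GENCODE first exon, and 21 bases at chr14:35187856-35187876 inside that exon, which hold the only E-box.
Sncb: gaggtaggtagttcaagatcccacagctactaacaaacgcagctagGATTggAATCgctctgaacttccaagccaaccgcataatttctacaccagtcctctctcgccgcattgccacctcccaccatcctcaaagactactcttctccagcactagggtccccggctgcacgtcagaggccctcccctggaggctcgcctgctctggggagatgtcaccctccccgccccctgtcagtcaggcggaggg
Sncg: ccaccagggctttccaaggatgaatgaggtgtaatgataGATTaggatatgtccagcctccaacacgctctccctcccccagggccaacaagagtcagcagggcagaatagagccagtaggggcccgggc
Sncg E-box: gcatcaatatttCATCTGcgt

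The motifs were those known for POU domain factors (ATAATTAAT, the shorter ATTAAT that it contains, and the octamer ATGCAAAT), the E-box CANNTG known for Atoh1 and its relatives, and AATC, the core known for Gfi1. In the 250 bases before the RefSeq start, the POU motifs had 0 matches in either synuclein gene. Over 32851 promoter windows of this length, 0.259% held ATAATTAAT, 4.39% held ATTAAT and 1.60% held ATGCAAAT. With motifs this rare, 0 matches would be found for most genes, so no conclusion about Pou4f3 is drawn. Nptx1, Nptx2 and Nptxr had no entry among the promoters and were not searched. The Sncg window held 1 E-box, CATCTG, and 1 AATC, and the Sncb window held 0 E-boxes and 2 AATC. These short motifs were common, with an E-box in 66.2% and AATC in 69.0% of all windows.

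Nptx1 (Entrez ID 18164) lies on chromosome 11 from 119400033 to 119409067 on the minus strand, with 5 exons in a transcript of 5217 bases. Its normalized counts in Dox cells were 2218 and 2482.5 in iPou4f3, 1603 and 2109 in iG+P, 5892 and 4781 in iP+A, and 784 and 500.5 in iGPA. The lowest, median and highest values were 4.37, 12.2 and 18 in the 14 No Dox libraries and 9.67, 12.5 and 28.1 in the 6 Dox libraries without the Pou4f3 transgene. As for Sncg, the 8 Dox libraries with Pou4f3 did not overlap with the other 20, and Nptx1 was chosen in the same way.

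The order of the lines differed from that of Sncg. Nptx1 was highest in iP+A, then in iPou4f3 and iG+P, and lowest of the 4 in iGPA, where Sncg was highest. The libraries of these 4 lines did not overlap with each other for Nptx1, although iPou4f3 and iG+P were close. The Dox effect was highest in iP+A at 8.96, followed by iPou4f3 at 7.67, iG+P at 7.07 and iGPA at 6.24 on the log2 scale, each ± 0.46 (SE), or 548-fold, 221-fold, 147-fold and 79.5-fold as ratios of mean normalized counts. Without Pou4f3 it was 0.17 in iAtoh1, -0.69 in iGfi1 and 0.91 in iG+A.

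Adding Gfi1 moved the Dox effect on Nptx1 by -2.72 in iP+A cells and by -0.59 in iPou4f3 cells (± 0.65, SE of each difference). Adding Atoh1 moved it by 1.29 in iPou4f3 cells and by -0.83 in iG+P cells. For Sncg the differences on adding Gfi1 were 2.12 in iPou4f3 and 0.76 in iP+A cells. These values describe 2 clones per line and were not tested, because the lines were those in which both genes had been picked. The mean Dox effect over lines with Pou4f3 exceeded that over lines without it by 7.36 ± 0.35 for Nptx1.

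Nptx2 (Entrez ID 53324) lies on chromosome 5 from 145306756 to 145318347 on the plus strand, with 5 exons in a transcript of 2551 bases. It was higher than Nptx1 in all untreated EBs, with a lowest, median and highest of 49.1, 89.1 and 388 normalized counts in the 14 No Dox libraries. In iG+P it was at 65.4 and 98.2 without Dox and at 1367 and 1357 with Dox. In iP+A these values were 58.0 and 121.4 without and 440 and 296.1 with Dox. Dox libraries were above their No Dox libraries in both lines, and the iG+P Dox libraries were above all others.

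The mean levels in Dox cells were lower in the remaining lines with Pou4f3, although the iPou4f3 and iP+A libraries overlapped. In iPou4f3 Nptx2 was at 75.6 and 133.9 normalized counts without Dox and at 199.3 and 339.6 with Dox, and in iGPA at 59.4 and 49.1 without and at 145.4 and 123.1 with Dox. In neither line did the 2 Dox libraries overlap with the 2 No Dox libraries, but the effects there did not pass the threshold. The iAtoh1 replicates were far apart in both conditions, at 388 and 79.9 without Dox and at 574.1 and 256.3 with Dox. In iGfi1 and iG+A, Dox libraries were between 76.6 and 124.5 normalized counts and No Dox libraries between 52.2 and 164.9.

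The Dox effect on Nptx2 passed the threshold in iG+P, at 4.07 ± 0.61 (SE) on the log2 scale with an adjusted p of 4.33e-05, and in iP+A, at 2.09 with an adjusted p of 0.0172. As ratios of mean normalized counts these were 16.6-fold and 4.10-fold, and 5.16% and 4.7% of all genes tested were called as higher with Dox in these lines. The call in iP+A was lost without the first No Dox replicate of that line (1.56, adjusted p = 0.146) and without its first Dox replicate (1.81, adjusted p = 0.132). The effects of 1.36 in iPou4f3, 1.29 in iGPA and 1.12 in iAtoh1 were below the fold threshold, and the adjusted p was 0.242 in iPou4f3 and 0.0921 in iGPA. With the replicate number as a block, which pairs Dox with No Dox, adjusted p values were 0.0439 in iPou4f3, 0.0107 in iGPA and 0.0366 in iAtoh1, and the fold kept these effects from passing. The iAtoh1 value rested on single libraries. It was 2.25 (adjusted p = 0.0177) without the first No Dox replicate, at 388 normalized counts, and -0.02 without the second, at 79.9. In iGfi1 and iG+A it was -0.32 and 0.10.

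Averaged over lines, the Dox effect on Nptx2 was 1.91 ± 0.47 larger with than without Pou4f3, with a 95% interval of 0.93 to 2.88 and an adjusted p of 0.0121 in limma. In this comparison 1.81% of genes were called as higher. By the tests between lines that differ by 1 factor, the effect in iG+P exceeded that in iGfi1 by 4.39 ± 0.86 (adjusted p = 0.00658, 1.42% of genes called as higher). It exceeded that in iPou4f3 by 2.71 (adjusted p = 0.0358, 3.43% called as higher). Adding Pou4f3 to iAtoh1 or to iG+A moved the effect by 0.97 and 1.20 (adjusted p = 0.626 and 0.49), neither past the threshold. Adding Gfi1 to iP+A moved the effect by -0.80 (adjusted p = 0.571). Adding Atoh1 to iG+P moved it by -2.78 (adjusted p = 0.0353, 1.66% called as lower), so the Nptx2 level under all 3 factors was below that under Gfi1 with Pou4f3. Leaving out 1 of their 8 libraries, the difference from iPou4f3 did not pass in 5 fits, at 2.30 to 3.12 over the 8, and that between iGPA and iG+P passed in none, at -3.07 to -2.49.

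**Figure D2:**
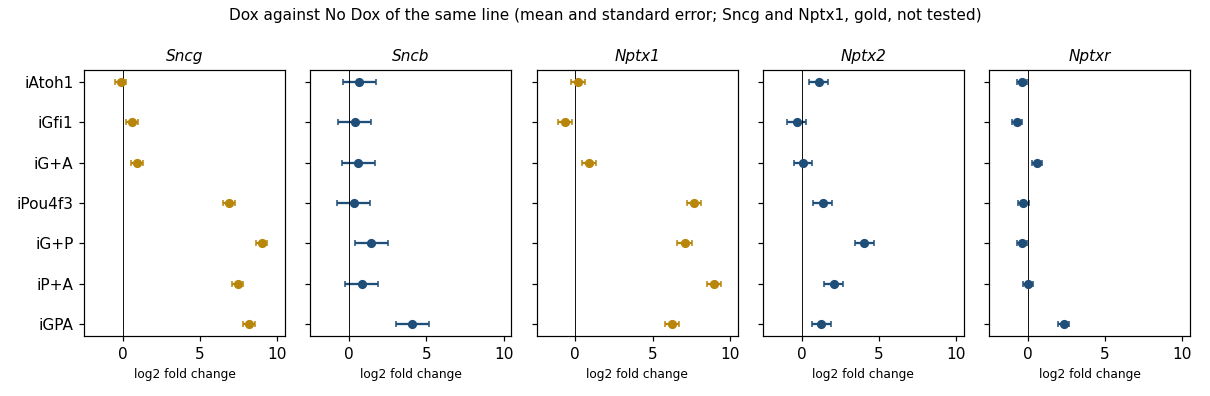
Dox effect on each of the 5 genes (1 panel per gene) in each line (rows), as the log2 fold change of Dox against No Dox, with bars for the standard error. Sncg and Nptx1, drawn in gold, were not tested and lie between 6.24 and 8.98 in the 4 lines with Pou4f3. The tested paralogs, in blue, reach their highest effects at 4.08 for Sncb and 2.32 for Nptxr in iGPA and at 4.07 for Nptx2 in iG+P.

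Nptxr (Entrez ID 73340) lies on chromosome 15 from 79616783 to 79635196 on the minus strand, with 5 exons in a transcript of 5004 bases. A second protein-coding gene annotated on the same strand, Npcd, overlaps it, so the division of reads between them is uncertain. Nptxr was expressed in every library, with a lowest, median and highest of 268.8, 452.6 and 784.3 normalized counts in the 14 No Dox libraries. In iGPA it was at 450 and 338 without Dox and at 1923 and 1994 with Dox. The other 12 Dox libraries were between 210.9 and 754.3 normalized counts, within or below the span of the untreated EBs. The Dox libraries of iGPA were above all others.

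The Dox effect on Nptxr passed the threshold in iGPA, at 2.32 ± 0.33 (SE) on the log2 scale with a 95% interval of 1.63 to 3.02 and an adjusted p of 1.55e-05, or 4.97-fold as a ratio of means. It was between -0.71 and 0.62 in the other 6 lines and passed in none of them. Npcd was at 165.2 and 182.8 normalized counts without Dox and at 419.9 and 271.6 with Dox in iGPA, a Dox effect of 0.95 ± 0.33 that was below the fold threshold. In iPou4f3 the Nptxr libraries of the 2 conditions overlapped, at 361 and 381.7 without Dox and 210.9 and 439.5 with Dox. The mean Dox effect with Pou4f3 exceeded that without by 0.58 ± 0.25, with an adjusted p of 0.17 and an interval of 0.05 to 1.11.

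The effect on Nptxr in iGPA was larger than in each line with a pair of factors. The difference was 2.32 ± 0.47 from iP+A (adjusted p = 0.00211, 4.76% of genes called as higher) and 2.67 from iG+P (adjusted p = 0.000812, 4.24% called as higher). From iG+A it was 1.70 (adjusted p = 0.0464, 1.6% called as higher), a call that was lost when Npcd was added to Nptxr (1.18, adjusted p = 0.0758) and in 7 of the 8 fits that left out 1 of its libraries. In iG+A the Dox libraries, at 412.8 and 579.6, were above the No Dox libraries, at 285.4 and 351.8, with an effect of 0.62. The effect in iG+A exceeded that in iGfi1 by 1.34 with an adjusted p of 0.0417, which was below the fold threshold and ranged from 1.09 to 1.58 when 1 library was left out, passing in 2 of the 8 fits.

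Over the 3 tested paralogs and 7 lines, 4 of 21 Dox effects were past the threshold as higher and 0 as lower by limma. They comprised 2 in iGPA, where 8.65% of all genes were called as higher, 1 in iG+P (5.16%) and 1 in iP+A (4.7%), and 0 in iG+A (7.35%), iAtoh1 (2.89%), iGfi1 (2.15%) and iPou4f3 (1.47%). The share of all genes called as lower was 0.606% for iPou4f3, 2.52% for iAtoh1, 2.58% for iP+A, 2.67% for iGfi1, 4.95% for iG+A, 5.31% for iGPA and 5.36% for iG+P. At an unadjusted p under 0.05 and any fold, 6 of the 21 effects were higher and 1 was lower, and no other tool was run. By this looser rule the share of all genes that were higher was 10.1% for iPou4f3, 17.1% for iAtoh1, 18.8% for iP+A, 19.1% for iGfi1, 21.4% for iG+P, 25.1% for iG+A and 26.7% for iGPA, so that the looser count was near the background. The shares lower were 8.15% for iPou4f3, 17.9% for iP+A, 18.4% for iAtoh1, 19.1% for iGfi1, 21.2% for iG+P, 24.1% for iG+A and 25.6% for iGPA. Of the 27 tested differences between lines that differ by 1 factor, 5 were past the threshold as larger and 1 as smaller. For the comparisons in which 0 of the 3 paralogs was called, the share of all genes called as larger and as smaller was 2.09% and 0.689% from iAtoh1 to iP+A, 4.44% and 2.44% from iAtoh1 to iG+A, 5.17% and 3.37% from iGfi1 to iG+A, and 1.44% and 0.172% from iPou4f3 to iP+A. The shares called as smaller in the others were 0.428% from iGfi1 to iG+P, 0.6% from iG+A to iGPA, 4.19% from iPou4f3 to iG+P, 2.84% from iP+A to iGPA, and 0.529% for lines with against lines without Pou4f3.

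**Figure D3:**
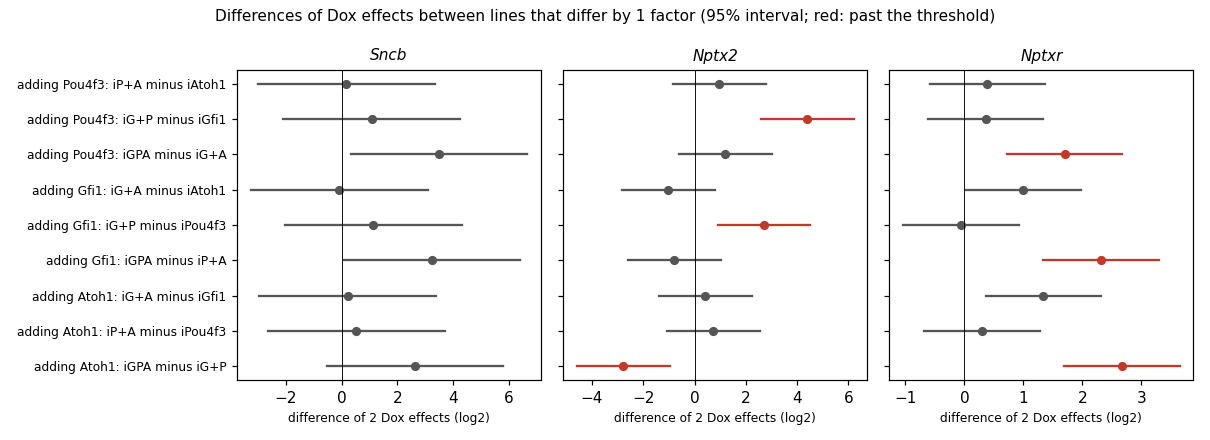
Differences of the Dox effect between lines that differ by 1 factor (rows), on the log2 scale with 95% intervals, for Sncb, Nptx2 and Nptxr (panels, each with its own horizontal range). Red points passed the threshold. Nptx2 has its largest difference when Pou4f3 is added to iGfi1, at 4.39, and Nptxr when Atoh1 is added to iG+P, at 2.67, and no difference of Sncb is red.

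Divided by the length of the longest annotated transcript, Sncg had the highest normalized count per kb of the 5 genes in Dox cells of every line with Pou4f3. It was at 10630 ± 90.7 (SD, n = 2) in iGPA, followed by iG+P at 8793 ± 1979, iP+A at 8289 ± 1225 and iPou4f3 at 3358 ± 103. The leading pentraxin by this measure was Nptx1 in iPou4f3, at 450.5 ± 35.9 normalized counts per kb, and in iP+A, at 1023 ± 151. In iG+P it was Nptx2, at 533.9 ± 2.85, above Nptx1 at 355.8 ± 68.6. In iGPA it was Nptxr, at 391.3 ± 9.98, above Nptx1 at 123.1 ± 38.4 and Nptx2 at 52.6 ± 6.16. The predominant pentraxin transcript per kb thus differed between lines that shared the Pou4f3 transgene. Sncb was lowest per kb in each of these lines, from 2.80 in iPou4f3 to 23.3 ± 1.30 in iGPA. A level in these bulk samples cannot tell a difference in the number of expressing cells from one in the RNA of each cell.

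Across the 28 libraries, which share lines and conditions, the log2 levels of Sncg and Nptx1 had a Pearson r of 0.96. Pairs with a paralog were lower, with 0.67 for Nptx1 and Nptx2, 0.55 for Sncb and Sncg, 0.32 for Nptx1 and Nptxr and -0.07 for Nptx2 and Nptxr. Genes whose pattern was most like that of Sncg included Gh, Shc1, Otof and Lrrn3, with r from 0.974 to 0.961. Otof codes for otoferlin, the calcium sensor of the hair cell ribbon synapse, and Gh for growth hormone. Those most like Nptx1 were Rtn4rl1, Slc17a4, Serpina3g, Asic1 and Sncg itself, with r from 0.962 to 0.955. Asic1 codes for an acid-sensing ion channel. Likeness was lower for the others. The closest genes were Rimkla (0.775), Itpr1, Elfn1, Lsm6 and Kctd8 for Nptx2, Lysmd2 (0.876), S100a1, BC029722, Sars2 and Tmem70 for Nptxr, and Kdm4b (0.775), Shb, Rasd2, Ppp2r2c and Mark2 for Sncb. These correlations are a description over n = 28 libraries, and most of the spread for Sncg and Nptx1 lies between the libraries with induced Pou4f3 and the others.

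The partners of the pentraxins were described from a list of AMPA receptor subunits, their auxiliary and scaffold proteins, the protease Adam17 and other pentraxins, of which 17 could be tested. Crp was below the filter, with a highest value of 0.959, and Apcs was not analysed here. Of the 17, those that rose with Dox numbered 5 in iP+A (4.7% of all genes were called as higher), 4 in iGPA (8.65%), 3 in iG+P (5.16%), 2 in iG+A (7.35%), 1 in iAtoh1 (2.89%), 1 in iPou4f3 (1.47%) and 0 in iGfi1 (2.15%). Those that fell numbered 3 in iG+P (5.36% of all genes were called as lower), 1 in iGfi1 (2.67%) and 1 in iGPA (5.31%), and 0 in the remaining lines. At an unadjusted p under 0.05, 10 were higher and 4 lower in iG+P, against 21.4% and 21.2% of all genes. By this rule the counts were 10 and 1 in iP+A (18.8% and 17.9%) and 9 and 1 in iGPA (26.7% and 25.6%). They were 7 and 2 in iG+A (25.1% and 24.1%) and 7 and 0 in iPou4f3 (10.1% and 8.15%). Counts of 5 and 0 were found in iAtoh1 (17.1% and 18.4%) and of 3 and 4 in iGfi1 (19.1% and 19.1%). The median Dox effect of the list ran from 0.00 in iGfi1 to 0.77 in iGPA, and that of all genes from -0.03 to 0.02.

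The AMPA receptor subunits did not move together. Gria2, which codes for the subunit that limits calcium entry, rose in 5 lines, most in iGPA by 3.74, followed by iG+A (3.23), iAtoh1 (2.45), iP+A (1.84) and iG+P (1.52) (± 0.30, SE). In iGPA it was between 132.8 and 185.7 normalized counts without Dox and between 1715 and 2590 with Dox. Its call in iG+P was lost without the first No Dox replicate (1.18) or the first Dox replicate (1.34), and that in iP+A without the second Dox replicate (1.48), each by falling below the fold threshold. The iG+P call was also lost with quantile scaling (1.38) and a pseudocount of 5 (1.49). In iGfi1 the effect of 1.33 was below the fold threshold but passed without the first No Dox replicate (1.55) or the second Dox replicate (1.58). Gria3 fell by 1.58 in iGfi1, by 1.55 in iG+P and by 2.58 in iGPA (adjusted p = 4.44e-07 in iGPA). Its call in iGfi1 was lost without the second No Dox replicate (-1.46) and with quantile scaling (-1.50), and it was called as lower in iG+A without 1 library and in iP+A without either of 2 libraries of those lines, and in iP+A with quantile scaling.

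Gria4 rose in iPou4f3, from 197 to 203 normalized counts without Dox to 840 to 1013 with Dox, by 2.20 ± 0.32 on the log2 scale with an adjusted p of 0.000273, and in iP+A by 1.89. Gria1 rose in iP+A by 2.75 and in iGPA by 2.34, but the iP+A call was lost when only the groups compared were fitted (adjusted p = 0.0565). Its effect in iPou4f3 was 1.78 with an adjusted p of 0.0571, or 0.0339 with the replicate number as a block and 0.0435 with a pseudocount of 5. Cacng5, an auxiliary subunit of AMPA receptors, rose by 5.23 in iG+P, by 4.63 in iGPA, by 3.98 in iP+A and by 3.44 in iG+A (± 0.62, SE).

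**Figure D4:**
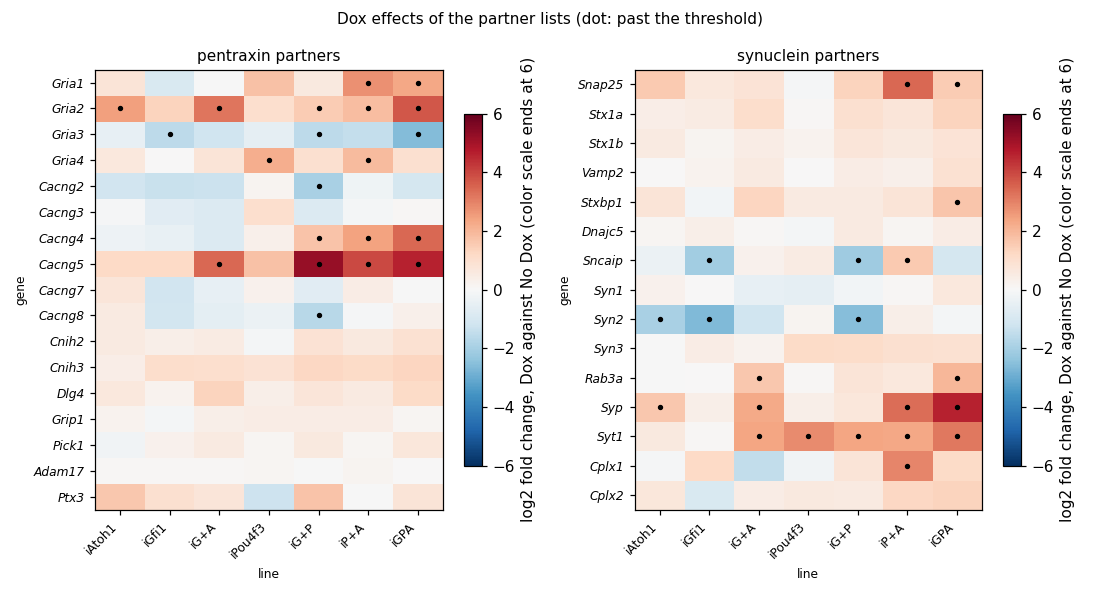
Heat maps of the Dox effect on the tested genes (rows) of the pentraxin partner list, left, and the synuclein partner list, right, in each line (columns). Color gives the log2 fold change, red for higher and blue for lower with Dox, and a dot marks an effect past the threshold. Dots gather in the rows of Gria2, Cacng5, Syp and Syt1, each past the threshold in 4 or 5 lines.

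The synuclein partners were 15 genes, all of them tested, that code for proteins of the synaptic vesicle and its release and for the synuclein-binding protein synphilin-1 (Sncaip). With Dox, 5 rose in iP+A (4.7% of all genes were called as higher), 5 in iGPA (8.65%), 3 in iG+A (7.35%), 1 in iAtoh1 (2.89%), 1 in iPou4f3 (1.47%), 1 in iG+P (5.16%) and 0 in iGfi1 (2.15%). The count of 1 of 15 in iG+P was near the share of all genes. At an unadjusted p under 0.05 and any fold, 13 were higher and 1 lower in iGPA (26.7% of all genes higher), 12 and 0 in iP+A (18.8%), 10 and 2 in iG+P (21.4%), 6 and 1 in iAtoh1 (17.1%), 6 and 3 in iG+A (25.1%), 4 and 1 in iPou4f3 (10.1%), and 3 and 3 in iGfi1 (19.1%). In iAtoh1 1 gene fell, where 2.52% of all genes were called as lower, and 2 fell in iGfi1 (2.67%) and 2 in iG+P (5.36%). The median Dox effect of the list ran from 0.16 in iGfi1 to 1.17 in iGPA. Syp, which codes for the vesicle protein synaptophysin, rose by 4.64 in iGPA, by 3.34 in iP+A, by 2.28 in iG+A and by 1.62 in iAtoh1 (± 0.36, SE, adjusted p = 1.1e-08 in iGPA). The call in iAtoh1 was lost without the second No Dox replicate (1.31) or the first Dox replicate (1.33), and when only the groups compared were fitted (adjusted p = 0.0606).

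Syt1, the calcium sensor of vesicle fusion, rose in the 4 lines with Pou4f3 and in iG+A, by 2.32 to 3.17 (± 0.33, SE). In iPou4f3 it was between 32.7 and 39.1 normalized counts without Dox and between 230 and 302 with Dox. Of the SNARE genes, which code for the proteins that fuse vesicle and cell membrane, Snap25 rose in iP+A by 3.46 and in iGPA by 1.54 (adjusted p = 0.0434). The iGPA call was lost without any 1 of its 4 libraries, at 1.30 to 1.78, and also with quantile scaling (1.26), a pseudocount of 5 (1.25) or no filter (adjusted p = 0.0508). In iAtoh1 its effect was 1.57 with an adjusted p of 0.0676, or 0.0172 with the replicate number as a block and 0.0496 with quantile scaling. The highest effects of Stx1a and Vamp2 were 1.33 and 0.92, both in iGPA and below the fold threshold. Snap25 and Syt1 also belong to the neuron markers described next.

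Markers of cell types moved with the same comparisons. Of 10 neuron markers, all 10 rose with Dox in iP+A, 9 in iGPA, 4 in both iAtoh1 and iG+A, 3 in both iPou4f3 and iG+P, and 0 in iGfi1. At an unadjusted p under 0.05, 2 were higher in iGfi1, against 19.1% of all genes. The share of all genes called as higher was 4.7% in iP+A, 8.65% in iGPA, 2.89% in iAtoh1, 7.35% in iG+A, 1.47% in iPou4f3, 5.16% in iG+P and 2.15% in iGfi1, and it is the background for the sensory neuron and hair cell markers too. Their summed level was 1734 to 2238 normalized counts in the Dox libraries of iPou4f3 against 526.2 to 761.5 without Dox, and 1974 to 2285 against 782.5 to 830.5 in iG+P. It was 17590 to 23770 against 701.9 to 1086 in iP+A and 8149 to 8174 against 471.2 to 668.2 in iGPA. In iAtoh1 it was 1885 to 2933 against 731.8 to 1385. Nptx1 was highest in iP+A, as were the summed neuron markers, whereas Sncg, Nptxr and Sncb were highest in iGPA and Nptx2 in iG+P.

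Of 5 sensory neuron markers tested, 5 rose in iGPA, 3 in iP+A, 2 in iG+P and 1 in iPou4f3, but also 4 in iG+A and 2 in iAtoh1. Of 6 hair cell markers, 4 rose in iGPA, 3 in iG+A, 2 in both iG+P and iP+A and 1 in iPou4f3. Markers of other EB cell types fell in several lines, in which the share of all genes called as lower was 5.36% for iG+P, 5.31% for iGPA, 4.95% for iG+A, 2.67% for iGfi1, 2.58% for iP+A, 2.52% for iAtoh1 and 0.606% for iPou4f3. Of 6 blood markers, 5 fell in iAtoh1, 4 in iG+A, 5 in iP+A and 4 in iGPA. In iG+P 1 of them fell, while 4 were higher at an unadjusted p under 0.05 (21.4% of all genes) and the median effect was 1.02. In iGfi1 0 fell and 4 were higher at an unadjusted p under 0.05 (19.1% of all genes). Fibroblast markers fell in every line except iPou4f3, from 1 of 6 in iP+A to 6 of 6 in iGPA. Endothelial markers fell in up to 2 of 4 and pluripotent markers in up to 3 of 4. In iPou4f3 0 markers of these other cell types fell. No marker was at 0 in both Dox libraries of any line. The part of cell composition in the levels of the 5 genes was not tested.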

How the data were processed

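mRNA libraries were made from total RNA of 28 mouse samples and sequenced. Per the labels, the authors used cutadapt, kallisto and DESeq2 with the mm9 build, and their versions were not given in the sources used here. The authors deposited log2(normalized count + 1) values after DESeq2 size factors, for 19421 genes by Entrez ID, 19314 of which were named from RefSeq. They hold no raw counts, so read depth is unknown, a count model was not run and no counting interval is given. A library counts as a replicate where the series record calls it a different clone.

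limma 3.58.1 (R 4.3.3), with its mean-variance trend, was fitted to 14 group means over all 28 libraries (14 residual degrees of freedom). Genes with 10 or more normalized counts in 2 or more libraries were tested, 16837 in all. p-values are two-sided and were Benjamini-Hochberg adjusted within each comparison. The fit was tested on simulated data. With a pseudocount of 1, fold changes of low genes are understated. Coordinates and transcript lengths are from GENCODE on NCBIM37. Figures were drawn with matplotlib 3.10.9, and Python 3.11.15 was used for annotation.

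The members and lists were chosen with earlier results of these data known. Of the list genes, those past the threshold in at least 4 lines in 1 direction, Gria1 to Gria4, Snap25, Vamp2 and Stx1a were named, with the 5 genes most correlated with each member, except 1 that is not reported here. Within every line, libraries of the same replicate number deviated together from their group means (correlations of 0.103 to 0.246), so the numbers were taken to pair Dox with No Dox, and a fit with the replicate number as a block was an alternative. The other alternatives were quantile and 75th percentile scaling, pseudocounts of 0.5 and 5, no filter or a minimum of 50, fitting only the groups compared, no variance trend, a fold threshold of 1 and leaving out each library. Adding the counts of Npcd to Nptxr was chosen after seeing the data.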

Additional observations from a re-analysis of the deposited data

Results flagged for a closer look

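In 7 comparisons the Dox effect on a paralog differed between lines by limma's test of the difference itself. For Nptx2 the effect was 1.91 ± 0.47 (SE) larger on the log2 scale in lines with Pou4f3 than in lines without it (adjusted p = 0.0121). Adding Pou4f3 to iAtoh1 or to iG+A moved the effect by 0.97 and 1.20, neither past the threshold. It was 4.39 ± 0.86 larger in iG+P than in iGfi1 (adjusted p = 0.00658) and 2.71 larger in iG+P than in iPou4f3 (adjusted p = 0.0358). Between iGPA and iG+P the difference was -2.78 (adjusted p = 0.0353). For Nptxr the effect in iGPA was 1.70 ± 0.47 larger than in iG+A (adjusted p = 0.0464), 2.32 larger than in iP+A (adjusted p = 0.00211) and 2.67 larger than in iG+P (adjusted p = 0.000812). Of these, 3 depended on the libraries and the fit. Leaving out 1 of 8 libraries, the Nptx2 call between iGPA and iG+P was lost in all 8 fits, that between iG+P and iPou4f3 in 5, and the Nptxr call between iGPA and iG+A in 7, and without the variance trend their adjusted p values were 0.0533, 0.0535 and 0.0716. Each line had 2 clones.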

How the results depend on the processing

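No value changed direction to a call of the other sign. Without the variance trend, the differences between lines that differ by 1 factor past the threshold numbered 3 larger and 0 smaller, against 5 and 1. With a fold threshold of 1, 9 pentraxin partner effects were called as lower, against 5. Leaving out 1 library at a time, the paralog Dox effects past the threshold numbered 3 to 5 as higher and 0 as lower, the differences 3 to 6 and 0 to 1, the pentraxin partners 15 to 18 higher and 3 to 6 lower, and the synuclein partners 15 to 17 and 4 to 6. The difference with and without Pou4f3 was then 0.47 to 1.79 for Sncb, 1.53 to 2.28 for Nptx2 and 0.37 to 0.79 for Nptxr. With the replicate number as a block, 4 paralog effects, 5 larger and 1 smaller difference, 19 pentraxin partners and 17 synuclein partners passed as higher, against 16 and 16, and no call on Sncb, Nptx2 or Nptxr changed. Sncb in iGPA, Nptxr in iGPA and Nptx2 in iG+P passed under every alternative that gave a value, and Sncb could not be fitted with a minimum of 50 normalized counts. Nptxr in iGPA against iG+A did not pass without a filter (adjusted p = 0.0525) or trend (0.0716). Without the trend, the Nptx2 differences of iG+P from iPou4f3 and of iGPA from iG+P had adjusted p values of 0.0535 and 0.0533. Sncb in iGPA against iP+A passed when only the groups compared were fitted (adjusted p = 0.0264). The number of clones per group limits every estimate of the spread.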

Other observations

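Other genes of the partner lists, chosen after their values were seen, followed patterns of their own. Sncaip, which codes for the synuclein-binding protein synphilin-1, fell with Dox in iGfi1, from 85.9 and 108.7 normalized counts to between 18.7 and 26.1, and in iG+P, from between 62.4 and 78.2 to between 15.2 and 15.7. The Dox effects were -2.08 and -2.11 ± 0.47 (SE) on the log2 scale by limma (adjusted p = 0.00338 and 0.00186). In iP+A Sncaip rose by 1.59 (adjusted p = 0.0192). Syn2, a synapsin that tethers vesicles, fell by 1.93 in iAtoh1, by 2.63 in iGfi1 and by 2.54 in iG+P (± 0.39, SE), and its effect was -1.18 in iG+A (adjusted p = 0.0222, below the fold threshold), 0.17 in iPou4f3, 0.33 in iP+A and -0.12 in iGPA.

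Cacng4, an auxiliary subunit of AMPA receptors, rose in iG+P by 1.72, in iP+A by 2.40 and in iGPA by 3.46 (± 0.46, SE), with an effect of 0.31 in iPou4f3. Its Dox libraries were between 60.7 and 151.6 normalized counts in the 3 lines where it rose and its No Dox libraries there between 11.4 and 28.5. Rab3a, a GTPase of synaptic vesicles, rose in iG+A by 1.64 and in iGPA by 1.98 (± 0.16, SE). Its effect was 0.78 in iG+P (adjusted p = 0.000964) and 0.61 in iP+A (adjusted p = 0.00981), both below the fold threshold, 0.09 in iPou4f3, -0.04 in iAtoh1 and 0.03 in iGfi1. Whether the effects of these genes differ between lines was not tested.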
